A study of Mus musculus with 2 samples.

Results

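The cytosolic ribosomal protein genes are described here across the cell classes of tumors grown in wild-type hosts and in hosts without *Lmo7*. They were taken by symbol (Rps or Rpl with a number, Rplp with a number, or Rpsa, without the pseudogenes that carry a -ps suffix), which gave 84 of the 32285 genes in both count matrices. MC38, a line of mouse colon cancer cells, was grown subcutaneously in young C57BL/6 females, and the tumors were dissociated, sorted for live cells and sequenced in droplets as 1 library labelled WT (*Lmo7*+/+ hosts) and 1 library labelled KO (*Lmo7*-/- hosts). The hosts carried a global deletion of *Lmo7*, while the MC38 cells of both libraries carried none by design, and the number of mice behind each library was not given in the sources used here. With 1 library per genotype there were no replicates, so no comparison between the libraries was tested, and every interval given is a 95% interval of the counting error only.

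Each ribosome is built from a small and a large subunit, and nearly all of its proteins come from genes of this family. The family's mRNAs are among the most abundant of a cell and are made and translated together. Most begin with a C and a run of pyrimidines, the terminal oligopyrimidine (TOP) motif, through which mTORC1 and the RNA-binding protein *Larp1* set how much of them is translated. Growing cells and activated lymphocytes are known for high ribosome production. Several members have tissue-restricted or minor paralogs, and some (*Rpl5*, *Rpl11*) also bind *Mdm2*, the ubiquitin ligase that holds p53 low.

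The 84 genes comprised 31 of the small subunit, 43 of the large subunit, the 3 stalk genes *Rplp0*, *Rplp1* and *Rplp2*, and 7 paralogs. A total of 83 had at least 1 UMI (the tag that stands for a captured RNA molecule), and *Rpl10l*, a testis paralog of *Rpl10*, was at 0 in both libraries. Mouse genomes hold many processed pseudogenes of this family, and reads shared with a near-identical copy cannot be placed with certainty, so small differences in single members carry that limit as well.

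The start of the mRNA, where a TOP motif would lie, is shown for 6 members that recur below. RefSeq start sites on GRCm38.p6 were found for 64 of the 84 members, and 10 of these had several. Each window holds 30 bases read along the transcribed strand, from 15 bases before the annotated start. *Rps6* lies at chr4:86857353-86857382 on the minus strand, *Rps15a* at chr7:118116133-118116162 on the minus strand and *Rpl14* at chr9:120571502-120571531 on the plus strand. Among the paralogs, *Rpl7l1* lies at chr17:46782642-46782671 on the minus strand, *Rpl22l1* at chr3:28805493-28805522 on the plus strand and *Rpl39l* at chr16:10170213-10170242 on the plus strand. Capitals mark the unbroken pyrimidine run that begins at the annotated start.
Rps6: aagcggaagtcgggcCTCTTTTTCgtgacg
Rps15a: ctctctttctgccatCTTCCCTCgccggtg
Rpl14: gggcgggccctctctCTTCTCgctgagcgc
Rpl7l1: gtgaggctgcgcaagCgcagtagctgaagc
Rpl22l1: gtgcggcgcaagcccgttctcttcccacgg
Rpl39l: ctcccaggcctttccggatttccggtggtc
The first 3 begin with a C inside a run of 9, 8 and 6 pyrimidines, and the 3 paralogs have a run of 1 base or none at the annotated start. A missing run was not particular to paralogs, since *Rpsa*, *Rpl13a*, *Rplp0* and *Rps3* had none at theirs either. A C at the start followed by 4 or more pyrimidines stood in 13 of 76 member windows (17.1%), against 2.51% of all 32851 promoters in the table. The letters CTTTC on the transcribed strand stood in 17 of 76 windows (22.4%) against 4.05% of all. In the 300 bases around the start, CCGGAAG on either strand, the core of ETS family sites, stood in 27 of 76 (35.5%) against 8.86% of all promoters, the E-box CACGTG in 8 (10.5%) against 7.15%, and TATAAA on either strand in 7 (9.21%) against 13.6%. Annotated starts can be several bases off, and a window without the letters says only that they are not in that window.

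The deposited matrices held 16208 droplets with 98582479 UMIs in the WT library and 15163 with 80648345 UMIs in the KO library, and the filters left 13542 and 11860 cells. The libraries had 279 cell barcodes in common, of which 175 passed the filters in both. *Lmo7* itself had 8 and 12 counts in macrophage-like cells, 18 and 12 (36.4 and 28.9 CPM) in endothelial-like cells and 38 and 33 (1.39 and 1.23 CPM) in all host cells of a named class. Tumor cell-like cells, without the deletion by design, had 1225 and 720 *Lmo7* counts (19.7 and 16.0 CPM). *Lmo7* RNA was thus counted in host cells of both libraries, and the part of tumor cell RNA in these few counts was not tested. The host counts did not show its loss in the library labelled KO, and only the labels give the genotypes. CPM is counts per 1000000 UMIs of the summed cells of a class. Classes were named from marker genes, with the members left out of the clustering. All 12 macrophage markers and all 12 T cell markers were at 5 CPM or more in their class. Only 5 of the 18 tumor cell markers were in tumor cell-like cells, which were therefore named by a chromosome profile computed without the members. In tumor cell-like cells, tumor cell markers summed to 142 and 125 CPM and macrophage markers to 212 and 218 CPM (WT and KO library). In the other classes tumor cell markers summed to 106 and 45.6 CPM. In bulk sums of this kind, a lower share of ribosomal protein UMIs and a higher amount of other RNA per cell cannot be told apart.

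Ribosomal protein UMIs made up 12.8% of all UMIs of the kept cells in the WT library and 12.9% in the KO library, but the share differed widely between cell classes. Lymphocytes stood highest. NK-like cells had 19.8% and 18.8% (WT and KO library, 76 and 58 cells) and T-like cells 17.4% and 18.1% (503 and 675 cells). Dendritic-like cells followed with 14.7% and 14.2%, then tumor cell-like cells with 13.2% and 14.1%, monocyte-like cells with 12.9% and 12.4% and mast-like cells, of which there were only 7 and 21, with 12.8% and 12.3%. Endothelial-like cells had 10.8% and 9.84%, macrophage-like cells 10.8% and 9.63%, and fibroblast-like cells were lowest with 9.57% and 9.36%. NK-like, T-like and dendritic-like cells headed the order in both libraries. Neighbours such as tumor cell-like and monocyte-like cells in the WT library, or macrophage-like and endothelial-like cells in both, lay close together. The spread between cells of a class was wider than most of these gaps. The interquartile range of T-like cells ran from 14.4% to 20.2% in the WT library, and that of macrophage-like cells 8.91% to 12.2%.

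**Figure D1:**
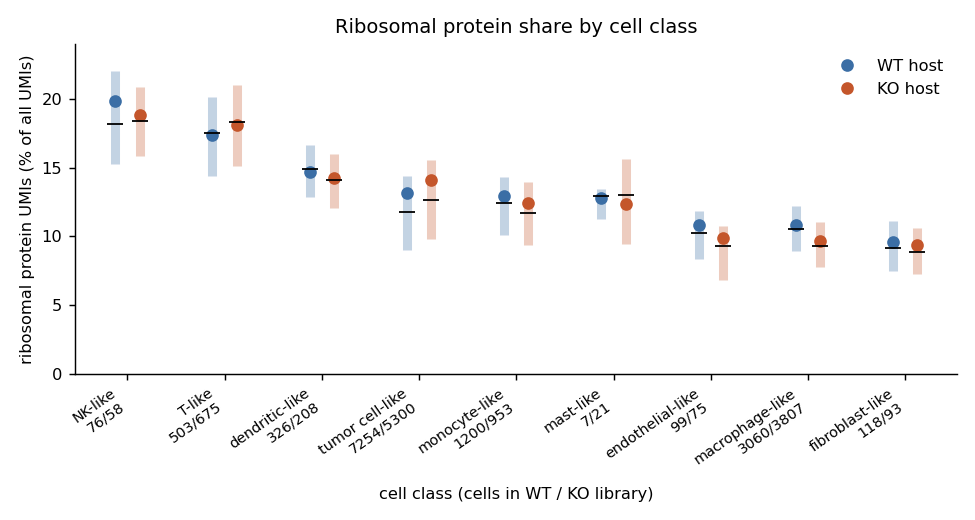
Share of all UMIs that came from the 84 ribosomal protein genes, on a linear axis in percent, for each cell class and library. Dots are the shares of the summed UMIs, black ticks the medians of the single cells and pale bars their interquartile range. NK-like and T-like cells sit highest in both libraries, and the macrophage-like dot of the KO library (9.63%) lies below that of the WT library (10.8%).

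T-like cells exceeded macrophage-like cells by a log2 ratio of the share of 0.69 (0.68 to 0.69) in the WT library and 0.91 (0.90 to 0.91) in the KO library. Most of the family took part. Of 81 members with at least 20 counts, 62 were higher in T-like cells by a log2 ratio of CPM of 0.5 or more in the WT library, where 36.8% of all genes tested were, and 74 in the KO library, where 40.3% were. None of the members was lower by that much, against 24.2% and 25.2% of all genes. The members' median log2 ratio was 0.70 and 0.92, while that of all genes was 0.26 and 0.31. T-like cells had fewer UMIs (median 2239 and 2242) than macrophage-like cells (5257 and 4378). Among cells with 2000 to 4000 UMIs the median share was 18.4% and 18.7% in T-like cells and 10.4% and 9.63% in macrophage-like cells. With every cell thinned to 1500 UMIs the log2 ratio of the share was 0.72 and 0.93. Random thinning does not change the share expected in a cell, so it does not address depth itself. Markers of macrophages summed to 433 and 481 CPM in T-like cells and to 19430 and 22522 CPM in macrophage-like cells, and their part in the result was not tested.

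Single members departed from this family pattern in the same way in both libraries. *Rps15a*, a small subunit protein, had 1280 and 1143 CPM in macrophage-like cells and 3433 and 3991 CPM in T-like cells, the largest log2 ratio of T-like over macrophage-like cells among the members (1.42 and 1.80). *Rpsa*, which is also known as a laminin receptor, followed with 1.22 and 1.61, and *Rpl13a*, which also has a part in interferon-gamma-dependent silencing of inflammatory mRNAs in myeloid cells, with 1.20 and 1.39. At the other end, *Rpl7l1* and *Rps27l* were the only members lower in T-like cells. *Rpl7l1*, a paralog of *Rpl7* that acts in ribosome assembly, had log2 ratios of -0.38 and -0.29. *Rps27l*, a p53-inducible paralog of *Rps27*, had -0.27 and -0.32, while *Rps27* itself had 932 and 902 CPM in macrophage-like cells and 1979 and 2205 CPM in T-like cells.

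The make-up of the ribosomal protein RNA pool was compared as each member's UMIs per 1000 ribosomal protein UMIs, which removes the difference in the total. It was computed in the 5 classes with at least 200 cells in each library for the 81 members with at least 100 counts in each. The pool was alike in most respects. The log2 range from the lowest to the highest class had a median of 0.32 over members, was under 0.5 in 61 of the 81 and reached 1 in 2, and 52 members had the same highest and the same lowest class in both libraries. These classes come from the same 2 libraries, so the libraries repeat each other only as far as their cells differ.

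The widest range belonged to both paralogs named above. *Rpl7l1* took 0.848 and 0.710 UMIs per 1000 in macrophage-like cells (WT and KO library) and 0.405 and 0.309 in T-like cells. *Rps27l* took 1.60 and 1.80 in macrophage-like cells and 0.827 and 0.765 in T-like cells, with tumor cell-like cells at 1.55 and 1.50. In each library the T-like value of both paralogs was the lowest of the 5 classes. *Rps15a* ran the other way, with 19.8 and 22.1 per 1000 in T-like cells and 10.8 and 11.0 in tumor cell-like cells. *Rpl13a* also was highest in T-like cells, with 18.8 and 18.4 against 11.1 and 11.1 in tumor cell-like cells.

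Other members had their lowest or highest part in tumor cell-like cells. *Rps29*, a small zinc-binding protein of the small subunit, took 20.1 and 22.3 per 1000 in tumor cell-like cells and 35.8 and 44.0 in macrophage-like cells, with monocyte-like cells at 32.6 and 37.6 and T-like cells, at 23.5 and 27.1, near the tumor cell-like value. *Rpl39*, a short protein that lines the exit tunnel of the large subunit, took 9.46 and 9.36 in tumor cell-like cells, and the 4 host classes lay between 16.4 and 17.5. *Rpl37* was the opposite case, with 34.5 and 36.9 in tumor cell-like cells and from 20.1 to 21.7 in the 4 host classes. For *Rpl39* and *Rpl37* the tumor cell-like value stood apart and the host classes hardly differed among themselves.

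**Figure D2:**
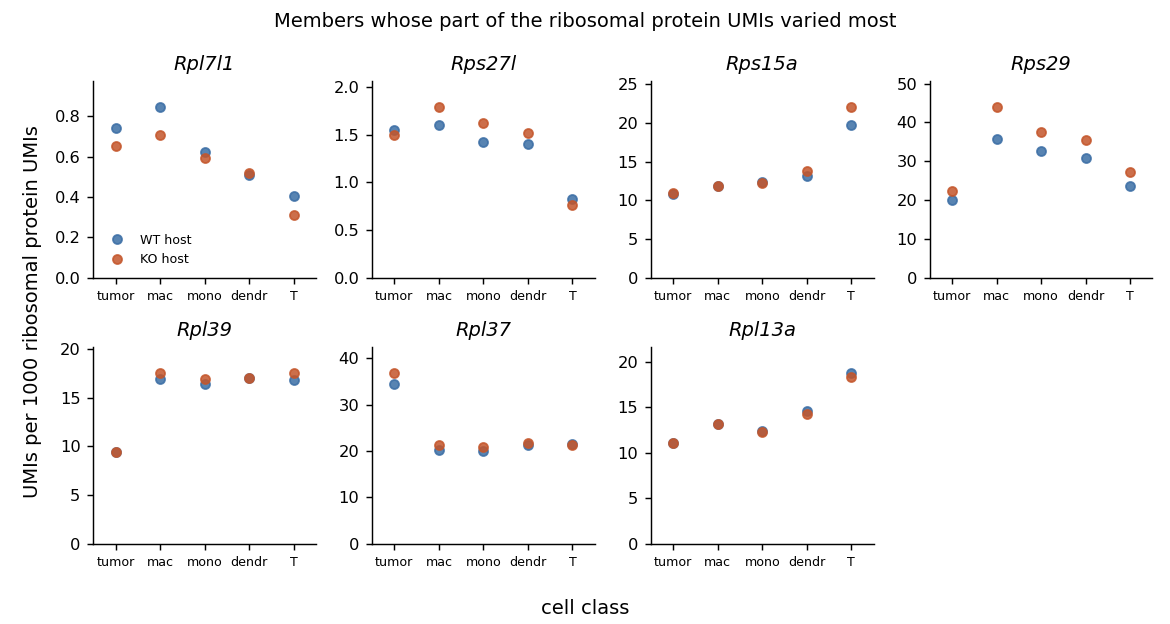
UMIs of a member per 1000 ribosomal protein UMIs, on linear axes from 0, in tumor cell-like, macrophage-like, monocyte-like, dendritic-like and T-like cells (left to right) of each library. Shown are 7 of the 8 members with the widest range. *Rpl39* and *Rps29* are lowest and *Rpl37* highest in tumor cell-like cells, and *Rps15a* and *Rpl13a* are highest in T-like cells.

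The members were also compared by their position in the genome. Tumor cell-like cells were set against macrophage-like cells by the log2 ratio of each member's part of the ribosomal protein UMIs. On chromosome 7, which holds 14 members including *Rps15a*, *Rpl13a* and *Rps9*, 12 were lower in tumor cell-like cells in each library, with a median of -0.22 in the WT library and -0.18 in the KO library. The other genes of chromosome 7 had a median log2 ratio of CPM of -0.33 and -0.38, relative to the median of all other genes. On chromosome 11, with 7 members including *Rpl27*, *Rpl19* and *Rpl38*, 7 were higher in the WT library and 6 in the KO library, with medians of 0.32 and 0.27, and the other genes there had 0.23 and 0.22. On chromosome 16 all 3 members were lower (median -0.26 and -0.31, other genes -0.21 and -0.26). Signs were opposite on chromosome 4 (members 0.20 and 0.36, other genes -0.10 in both), chromosome 10 (0.12 and 0.19, other genes -0.05 and -0.04) and chromosome 17 (0.07 and 0.05, other genes -0.02 and -0.09). Over the 14 chromosomes with 3 or more members, the medians of members and other genes had the same sign on 10 and opposite signs on 4 in each library. The chromosome profile of the other genes also named the tumor cell-like class, and its part in the members' values was not tested.

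**Figure D3:**
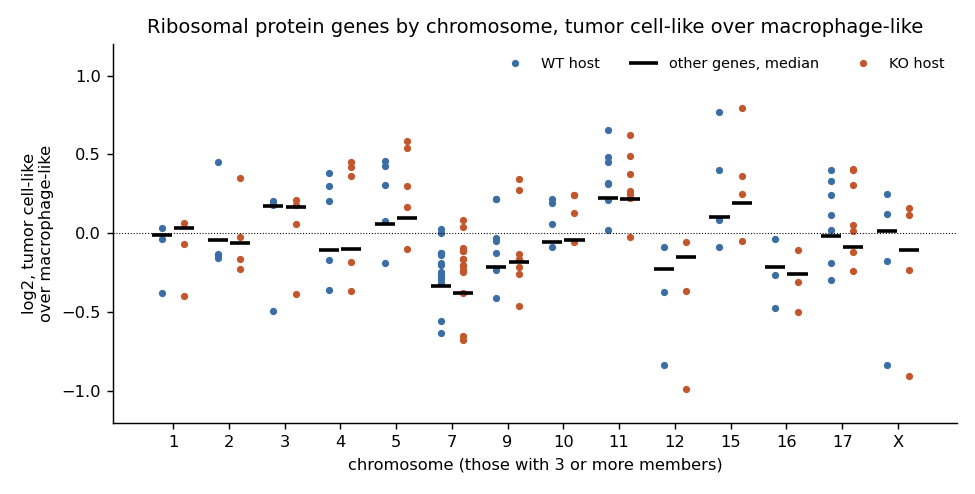
Log2 ratio of tumor cell-like over macrophage-like cells on a linear axis, for the chromosomes with 3 or more members. Dots are members (their part of the ribosomal protein UMIs) and black bars are the medians of the other genes of the chromosome (CPM, relative to all other genes), for each library. Dots and bars lie mostly below 0 on chromosome 7 and above 0 on chromosome 11, and 1 value (*Rpl3l*, WT library) lies outside the axis.

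In macrophage-like cells the family was lower in the library labelled KO. The share was 10.8% (10.78 to 10.81) in the WT library and 9.63% (9.62 to 9.65) in the KO library, a log2 ratio of -0.16 (-0.17 to -0.16). Of 83 members tested, 80 had a lower CPM in the KO library and 3 a higher one, and 76 had an interval below 0. The same counts were not made over all genes tested, whose median also lay below 0. Most members had many counts, so their intervals were narrow and could lie off 0 at small differences. The difference was broad and small. None of the members was higher by a log2 ratio of 0.5 or more, against 5.04% of the 12039 genes tested. *Rpl3l* was the single member lower by that much, against 8.1% of all genes, with 17 and 12 counts and an interval from -1.80 to 0.55. The members' median log2 ratio was -0.19, below the -0.10 of all genes tested, whose interquartile range ran from -0.27 to 0.07. The 233 other genes of like abundance had a median of 0.03. On edgeR's TMM scale the median of all genes was 0.00, the members' median was -0.09, and 67 members were lower and 16 higher.

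All parts of the ribosome showed this difference in macrophage-like cells. The median log2 ratio was -0.18 for the 31 small subunit genes, -0.19 for the 43 large subunit genes and -0.19 for the 3 stalk genes. The lowest values belonged to *Rpl14*, a large subunit protein (413 and 295 CPM, log2 ratio -0.49, -0.54 to -0.44, just inside the fold and past it with doublets removed, -0.53), and *Rpl7l1* (91.6 and 68.4 CPM, -0.42, -0.53 to -0.31). *Rpsa* (619 and 467 CPM), *Rpl17* (1900 and 1460 CPM) and *Rpl21* (725 and 564 CPM) followed, with log2 ratios of -0.41, -0.38 and -0.36. The intervals of all 5 lay below 0.

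Among members with at least 100 counts, the 5 highest log2 ratios all belonged to genes of the small subunit or its paralog *Rps27l*. *Rps29* had 3865 CPM in the WT library and 4241 CPM in the KO library, a log2 ratio of 0.13 (0.12 to 0.15), and was the only member with an interval above 0. *Rps21* (1324 and 1327 CPM, log2 ratio 0.00), *Rps27l* (173 and 173 CPM, 0.00) and *Rps20* (2019 and 2008 CPM, -0.01) hardly differed. The third member with a higher CPM was *Rpl39l*, with 14 and 19 counts.

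Genes of known special roles lay inside the family's range. *Rps6*, the target of the S6 kinases, had 1415 and 1258 CPM (log2 ratio -0.17), and *Rps3*, which also acts in DNA repair, 1575 and 1244 CPM (-0.34). *Rplp0*, *Rplp1* and *Rplp2*, which form the stalk that binds elongation factors, had -0.29, -0.11 and -0.19. *Rpl5* and *Rpl11*, which bind *Mdm2*, had -0.16 and -0.24. *Rpl38* and *Rpl10a*, studied for their part in the translation of selected mRNAs, had -0.14 and -0.33, and *Rps25*, needed for initiation at viral internal entry sites, had -0.11. *Rps27a*, which is made as a fusion with ubiquitin, had -0.24 and *Rpl41*, the shortest of the proteins, -0.09. Intervals of all of these lay below 0.

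Paralogs and their counterparts did not differ from each other in 1 common direction. *Rpl22l1*, which can stand in for *Rpl22*, had a log2 ratio of -0.24 in macrophage-like cells and *Rpl22* had -0.04. *Rpl36al* and *Rpl36a* had -0.16 and -0.15, *Rpl7l1* and *Rpl7* -0.42 and -0.27, and *Rps27l* and *Rps27* 0.00 and -0.05. *Rpl3l*, the heart and muscle paralog of *Rpl3*, and *Rpl39l*, the testis paralog of *Rpl39*, had 38 and 91 counts in all droplets of the WT library and 29 and 85 in those of the KO library. *Rpl3* and *Rpl39* had log2 ratios of -0.26 and -0.11. *Rps4x*, *Rps3a1*, *Rpl10* and *Rpl13a* had -0.23, -0.24, -0.15 and -0.17.

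The lower share was seen in every macrophage-like sub-cluster. All 8 had a lower share in the KO library, with log2 ratios from -0.22 to -0.04 and every interval below 0. The largest sub-cluster, led by *H2-M2*, *Procr*, *Il18bp* and *Vcam1* (1068 and 1695 cells), had 10.2% and 8.78%. The cycling sub-cluster, led by *Ccna2* and *Birc5* (785 and 711 cells), had 10.8% and 9.75%, and that led by *Retnla*, *Folr2* and *Lyve1*, genes of resident macrophages, had the lowest share in both libraries (8.59% and 7.88%). The sub-cluster with the highest share (12.7% and 12.3%, 300 and 251 cells) had the monocyte markers *Ccr2*, *Plac8* and *Ly6c2* among its 10 leading genes. Leading genes were ranked against the other macrophage-like cells, so macrophage markers shared by the class were not expected among them. The share of this sub-cluster lay near that of monocyte-like cells (12.9% and 12.4%). Without this sub-cluster the log2 ratio for the class was -0.17. One of the 8 (147 and 171 cells) was led by tumor genes such as *H19* and *Rhox5*, and without that one it was also -0.17. With the sub-clusters of the KO library weighted as in the WT library the log2 ratio was -0.15.

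Depth and other gene groups moved with the macrophage-like values. The median number of UMIs per cell was 5257 and 4378. Cells with 4000 to 8000 UMIs had a median share of 10.9% and 9.53% (1374 and 1556 cells), and those with 1000 to 2000 UMIs 8.97% and 8.03% (354 and 632 cells). The 18 cell cycle genes were all lower in the KO library (median log2 ratio -0.40, 5 past the fold), and 11 of 14 dissociation stress genes were (median -0.33). Tumor cell markers summed to 32.6 and 22.6 CPM. The part of these in the result was not tested.

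Lists of genes around the ribosome were examined in the same cells. All 32 ribosome biogenesis genes tested had a lower CPM in the KO library, with a median log2 ratio of -0.43 and 13 lower by the fold, against a median of -0.10 and 8.1% lower by the fold over all genes tested. This was the lowest median of the lists examined. *Ncl*, the nucleolar protein nucleolin, had 615 and 476 CPM, and *Nop58* and *Nop56*, core proteins of the snoRNPs that methylate rRNA, had log2 ratios of -0.66 and -0.52. Of 14 RNA polymerase I genes, which transcribe rRNA, 13 were lower (median -0.27). Among 20 translation factors and other genes with TOP mRNAs 18 were lower (median -0.21), such as *Eef1a1* (4520 and 4160 CPM), and none was past the fold. Of the 78 mitochondrial ribosomal protein genes, 72 were lower (median -0.19). The 18 genes of mTORC1 and *Larp1* had a median of -0.13, with *Larp1* at -0.27 and the inhibitor *Eif4ebp1* at 0.15. The median was 0.01 for the Myc network (8 tested), -0.06 for p53 targets (15 tested) and -0.14 for the integrated stress response (11 tested). *Fau* and *Rack1*, ribosome components whose symbols the rule does not cover, had -0.11 and -0.22.

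**Figure D4:**
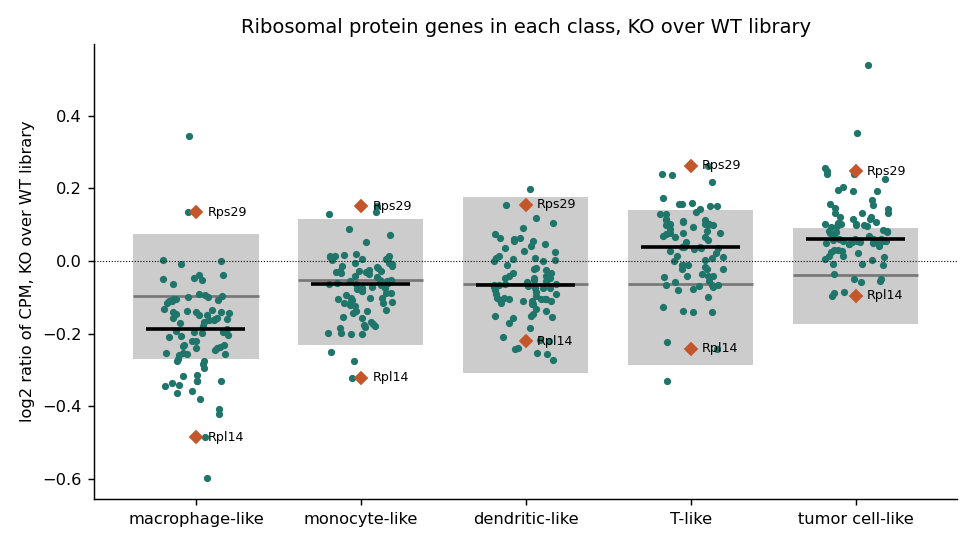
Log2 ratio of CPM, KO over WT library, of each ribosomal protein gene with at least 20 counts (dots) in 5 cell classes, on a linear axis of log2 values. Black bars are the members' medians, grey bars and boxes the median and interquartile range of all genes tested, and diamonds mark *Rps29* and *Rpl14*. Most members lie below 0 in macrophage-like cells and above 0 in tumor cell-like cells, and *Rps29* is above 0 in all 5.

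In tumor cell-like cells the family was slightly higher in the KO library. The share was 13.2% and 14.1%, a log2 ratio of 0.097 (0.096 to 0.099). A higher CPM in the KO library was seen in 70 of 82 members, 65 of them with an interval above 0. The same counts were not made over all genes tested. A single member, *Rpl39l* with 59 and 62 counts, was higher by the fold (log2 ratio 0.54, 0.00 to 1.08), against 4.84% of the 14312 genes tested, and none was lower by the fold, against 6.06%. The median log2 ratio was 0.06 over members and -0.04 over all genes, whose interquartile range ran from -0.17 to 0.09. Over 141 other genes of like abundance it was 0.02. On the TMM scale 73 members were higher and 9 lower. *Rpl3l* had 4 and 0 counts and was not tested.

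The highest members were partly others than in macrophage-like cells. *Rpl13* had 2030 and 2592 CPM (log2 ratio 0.35, 0.34 to 0.36), *Rps29* 2643 and 3137 CPM (0.25) and *Rps6* 2128 and 2513 CPM (0.24). The lowest were *Rpl17* (1767 and 1653 CPM), *Rpl14* (586 and 548 CPM), *Rpsa* (877 and 825 CPM), *Rpl7l1* (97.9 and 92.2 CPM) and *Rps4x* (1884 and 1809 CPM), with log2 ratios from -0.10 to -0.06. Of the stalk genes, *Rplp0* had 0.05, *Rplp1* 0.02 and *Rplp2* 0.06. *Rpl5* and *Rpl11* had 0.19 and 0.02, *Rpl41* 0.23 and *Rpl10a* -0.01.

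The tumor cell-like sub-clusters were not alike in this. Of the 8 sub-clusters, 6 had a higher share in the KO library and 2 a lower one. The sub-cluster with the highest share, led by *Ccl2* and *Tubb2a*, had 16.6% and 17.0% and held 151 cells in the WT library and 478 in the KO library. With the sub-cluster mix of the WT library the log2 ratio was 0.048, against 0.097 with each library's own mix. The 2 sub-clusters with the opposite direction were one with few UMIs (median 1653 and 1796) led by the macrophage genes *C1qb* and *C1qc* (10.5% and 10.2%) and one with 0.431% and 0.308% mitochondrial UMIs (14.6% and 14.3%). Without the former the log2 ratio for the class was 0.10.

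Lists around the ribosome had median log2 ratios from -0.17 to 0.10 in tumor cell-like cells. The median log2 ratio was -0.05 for the 32 ribosome biogenesis genes (14 higher, 18 lower), 0.06 for the 20 genes with TOP mRNAs (18 higher) and 0.03 for the 78 mitochondrial ribosomal protein genes, and in none of these was a gene past the fold. RNA polymerase I had -0.01, mTORC1 and *Larp1* -0.03, the Myc network -0.09, p53 targets -0.02, the integrated stress response 0.06, dissociation stress -0.17 and the cell cycle 0.10. Of 14 dissociation stress genes, 4 were lower and 1 was higher by the fold. By the same fold, 2 of 16 p53 targets were higher and 1 of 9 Myc network genes was lower. Over all genes tested, 6.06% were lower and 4.84% higher by the fold. *Fau* and *Rack1* had 0.14 and 0.07.

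**Figure D5:**
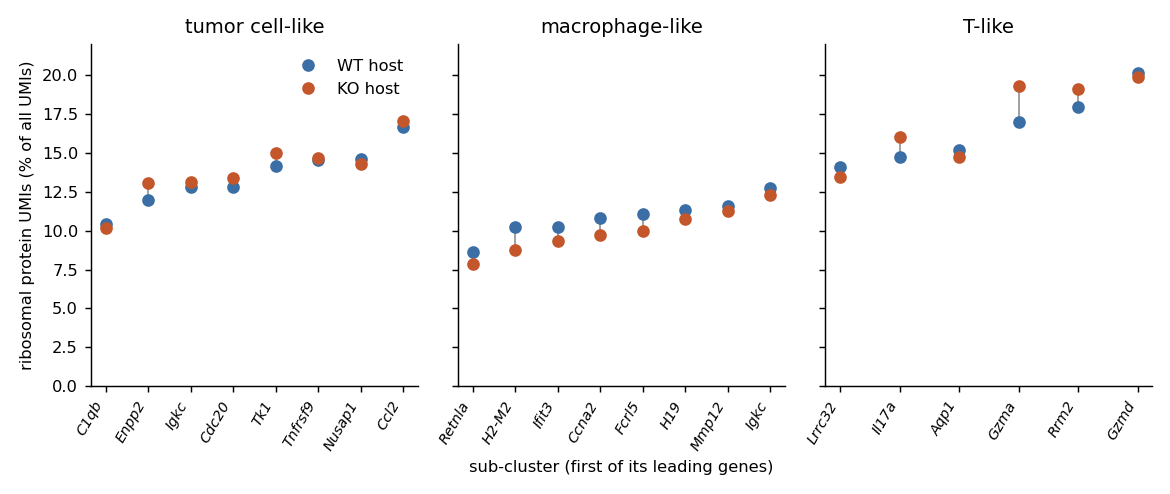
Share of all UMIs from ribosomal protein genes, in percent on a linear axis from 0, in the sub-clusters of 3 classes, each named on the axis by its first leading gene and ordered by the WT share. Blue dots are the WT and orange dots the KO library. All 8 macrophage-like pairs are lower in the KO library, 6 of 8 tumor cell-like pairs are higher, and 3 of 6 T-like pairs are higher.

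T-like cells had a share of 17.4% (17.3 to 17.4) in the WT library and 18.1% (18.0 to 18.1) in the KO library, a log2 ratio of 0.057 (0.049 to 0.064). Of 81 members tested, 52 were higher and 29 lower, and none was past the fold in either direction, against 6.5% of the 9563 genes higher and 12.1% lower. The members' median log2 ratio was 0.04, against -0.06 over all genes tested. It lay near the 0.05 of 92 other genes of like abundance. On the TMM scale 73 members were higher and 8 lower, so the balance of directions depended on the scaling. *Rps29* (4087 and 4903 CPM, log2 ratio 0.26), *Rpl13* (3020 and 3564 CPM, 0.24), *Rpl22l1* (374 and 440 CPM, 0.24) and *Rps15a* (0.22) were highest. *Rpl7l1*, with 111 and 116 counts, had -0.33 (-0.72 to 0.06), *Rpl14* -0.24 and *Rpl17* -0.22.

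T-like sub-clusters differed more from each other than between libraries. The sub-cluster led by the granzymes *Gzmd*, *Gzmg*, *Gzme* and *Gzmf*, killing enzymes of activated cytotoxic cells, had the highest share (20.1% and 19.9%, 175 and 290 cells). That led by *Foxp3* and *Lrrc32*, genes of regulatory T cells, had the lowest (14.1% and 13.5%, 63 and 77 cells), and the cycling sub-cluster had 18.0% and 19.1%. The sub-cluster led by *Gzma* and *S1pr1* had 17.0% and 19.3%, the largest difference between the libraries (log2 ratio 0.18, 71 and 73 cells). In all, 3 of 6 were higher and 3 lower in the KO library. One of the lower ones (15.2% and 14.7%, 57 and 48 cells) was led by *Aqp1*, *Cd63*, *Col6a1* and *Cpe*, of which *Col6a1* was a fibroblast marker here. Leading genes were ranked against the other T-like cells, so T cell markers shared by the class were not expected among them. Without this sub-cluster the log2 ratio for the class was 0.056. With the sub-cluster mix of the WT library it was 0.031. The TOP mRNA list had a median log2 ratio of -0.02, ribosome biogenesis -0.20, RNA polymerase I 0.01, mTORC1 and *Larp1* 0.00, mitochondrial ribosomal proteins -0.05, the Myc network -0.13, p53 targets -0.05, the integrated stress response -0.38, the cell cycle 0.10 and dissociation stress -0.51 (0 of 13 higher).

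Some members held a similar place among the members in the 5 largest classes, the ones in which ranks were taken. In monocyte-like and dendritic-like cells the members' median log2 ratio was -0.06 and -0.07, close to the -0.05 and -0.06 of all genes tested. Other genes of like abundance had a median of 0.03 and 0.02. Of 81 members 65 and 60 were lower. The interquartile range of all genes tested ran from -0.23 to 0.12 and from -0.31 to 0.18. *Rpl14* and *Rpl17* were among the 10 lowest members in all 5 large classes. *Rpl14* (ENSMUSG00000025794, chr9:120571444-120574654 on GRCm38) had log2 ratios of -0.32 in monocyte-like and -0.22 in dendritic-like cells, and *Rpl17* (ENSMUSG00000062328, chr18:74998558-75003381) had -0.25 and -0.24. *Rps29* (ENSMUSG00000034892, chr12:69157722-69159186), *Rpl13* and *Rps20* were among the 10 highest in all 5. *Rps29* had 4207 and 4673 CPM in monocyte-like cells and 4541 and 5059 CPM in dendritic-like cells, a log2 ratio of 0.15 and 0.16. All these classes share the same 2 libraries, so a difference between the libraries themselves and a difference between the hosts cannot be told apart.

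The small subunit took a slightly larger part of the ribosomal protein UMIs in the KO library in each of the 5 classes, for example 46.6% and 47.3% in macrophage-like cells and 44.4% and 44.7% in tumor cell-like cells. The stalk genes took a smaller part in each, with 5.95% and 5.81% in macrophage-like cells and 5.82% and 5.53% in T-like cells. *Rps29* weighed heavily in the small subunit values. It alone took 35.8 and 44.0 per 1000 ribosomal protein UMIs in macrophage-like cells. In monocyte-like cells it took 32.6 and 37.6, and in tumor cell-like cells 20.1 and 22.3. The small subunit's part without *Rps29* was not computed, so a larger part of the subunit as a whole is not shown. The length of the first annotated transcript, which need not be the one counted, moved with the ratio between the libraries. Across 81 members in macrophage-like cells, the median log2 ratio was -0.15 for members whose first GENCODE transcript has up to 761 bases and -0.23 for longer ones. It was -0.03 and -0.08 in monocyte-like, 0.07 and 0.00 in T-like and -0.05 and -0.07 in dendritic-like cells. In tumor cell-like cells, with 82 members split at 768 bases, the values were closer, at 0.08 and 0.06. These are descriptions across genes that share both libraries and are not independent.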

How the data were processed

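The authors deposited raw UMI counts per gene and droplet for 2 libraries, WT and KO, which were pooled for sequencing. The submitters' processing notes name Cell Ranger 2.1.1 and mm10, and the step that called cells is not described further in the sources used here. A droplet needed 500 genes, 1000 UMIs and a mitochondrial share of at most 15%, and doublets were kept (Scrublet marked 2.87% and 2.45%). Without ribosomal protein genes, cells were normalised to 10000, reduced to 2000 variable genes and 30 principal components, and clustered by Louvain (20 neighbours, resolution 0.5). Clusters were named "-like" from marker lists, and tumor cells by a chromosome profile, with limits set after the data were seen. Counts were summed per class and library. Shares have exact binomial (Clopper-Pearson) intervals, the log2 ratio between libraries the exact interval of the split of counts, and the ratio between classes a delta-method interval, all at 95%. Genes needed 20 counts over both libraries, and the fold was a log2 ratio of 0.5. No test between libraries was possible with 1 library per genotype.

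Named members were the paralogs with their counterparts, a set of members with known roles, the 5 highest and 5 lowest log2 ratios per class with at least 100 counts, and the 8 with the widest range between classes. Some genes that this rule names are not reported here. Other members in the text (those of chromosomes 7 and 11, and the members at the ends in all classes and in T-like against macrophage-like cells) were chosen after their values were seen. The members and lists were chosen with earlier results of these data known. Alternatives covered filters, doublets, resolution, principal components, clustering genes, denominators, thinning and TMM, and those on sub-clusters and on TMM directions were added after seeing the data. Ratios and intervals were tested on simulated data. Gene positions and lengths are from GENCODE M21, whose build is that of mm10. The software was R 4.3.3 (edgeR 4.0.16) and Python 3.11.15, with scanpy 1.11.5, scikit-learn 1.9.0, matplotlib 3.10.9, igraph 0.11.9, scipy 1.17.1, numpy 2.4.6 and pandas 2.3.3.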

Additional observations from a re-analysis of the deposited data

Results flagged for a closer look

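The ribosomal protein share moved in opposite directions in the 2 largest classes. In macrophage-like cells the log2 ratio of the KO over the WT library was -0.16, with all 8 sub-clusters lower, and in tumor cell-like cells it was 0.10, with 6 of 8 sub-clusters higher. The difference between the classes was not tested, since each genotype had 1 library.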

How the results depend on the processing

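No paired analysis was possible because each genotype had 1 library. No share result changed direction under any alternative run. The log2 ratio of the share in macrophage-like cells (-0.16) was -0.17 with the lenient filter, -0.19 with doublets removed, -0.19 at resolution 1.0, -0.18 with 20 principal components, -0.18 with ribosomal protein genes in the clustering, -0.17 without mitochondrial UMIs, -0.19 as the median of cells, -0.16 in thinned cells, -0.17 without sub-clusters led by genes of another class and -0.15 with the WT sub-cluster mix. In tumor cell-like cells (0.097) these were, in the same order, 0.077, 0.088, 0.099, 0.094, 0.092, 0.094, 0.10, 0.10, 0.10 and 0.048, with 0.11 under the strict filter and 0.095 without the 10 most abundant other genes. In T-like cells (0.057) it was 0.047 under the strict filter, 0.068 at resolution 1.0, 0.047 with 20 principal components and 0.031 with the WT mix.

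T-like over macrophage-like cells (0.69 in the WT and 0.91 in the KO library) gave 0.65 and 0.88 with the lenient filter, 0.70 and 0.91 with the strict filter, 0.73 and 0.98 with doublets removed, 0.69 and 0.95 at resolution 1.0, 0.71 and 0.94 with 20 principal components, 0.74 and 0.97 with the members in the clustering, 0.68 in the WT library without mitochondrial UMIs, 0.66 and 0.89 without the 10 most abundant genes, 0.73 and 0.98 as the median of cells, 0.72 and 0.93 in thinned cells 0.73 and 0.96 without the sub-clusters led by genes of another class, and 0.71 and 0.94 without the macrophage-like sub-cluster led by monocyte genes.

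The number of members past the fold in macrophage-like cells (1) was 0 under the strict filter, TMM or at least 100 counts, and 2 with doublets removed, at resolution 1.0, with 20 principal components, with the members in the clustering or without those sub-clusters. In tumor cell-like cells (1) it was 0 with the lenient or strict filter or at resolution 1.0 and 2 with no minimum count. The members behind these counts were *Rpl3l* and *Rpl39l*, with few UMIs, and *Rpl14*, which in macrophage-like cells crossed the fold with the lenient filter (-0.50), with doublets removed (-0.53) and under 3 other clusterings. The causes of the other shifts were not tested. Depth limited *Rpl3l*, *Rpl39l* and *Rpl10l* in all classes, and the intervals leave out variation between mice.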

Other observations

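Cells in clusters that received no name (899 in the WT and 670 in the KO library) had 12.8% and 13.1% ribosomal protein UMIs. Over all deposited droplets, those failing the filters included, the share was 12.6% in both libraries.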
